A study of Caenorhabditis elegans with 2 samples.

Results

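The regions described are the summits of eGFP-NHR-77 chromatin immunoprecipitation sequencing (ChIP-seq) that lay inside protein coding sequence on the autosomes of Caenorhabditis elegans, away from annotated 5′ ends. A summit is the base of highest enrichment within a peak. Coding summits were taken from the relaxed peak list called on the pool of both replicates. The deposited name of that list describes its entries as peaks and background. It and each replicate list held 30000 entries, so low-ranked summits may be background, and counts and densities are of list entries. The summit base had to lie in annotated coding sequence and outside the promoter windows, which start 1000 bp before the 5′ end of each transcript other than a piRNA and close 500 bp after it. There were 3083 such summits, which is 12.5% of the 24753 autosomal peaks and part of 30000 pooled peaks in all. They lay in the coding sequence of 2473 genes. Among the entries of the list, the choice used the position of the summit and not the signal value. The entries themselves and their summit bases come from the measured enrichment.

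The animals were whole L3 larvae of both sexes of strain OP353, which carries the mutation unc-119(tm4063) on chromosome III and the insertion wgIs353 targeting nhr-77. Both samples, biological replicates 1 and 2, belong to this 1 group, and no second condition or untagged strain was compared. The promoter that drives the transgene is not stated in the labels, and the antibody label reads nhr-77, so whether the antibody recognised the tag or the receptor is not settled. Whole animals mix all tissues, so a summit cannot be assigned to a cell type. The read depth of the libraries is not given in the lists, and every interval printed is an exact Clopper-Pearson or exact Poisson 95% interval that covers counting error only. Peaks of 1 list are not replicates of a condition, so no test was made over peaks.

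Nuclear hormone receptors are transcription factors with a zinc-finger DNA-binding domain, many of them regulated by small lipophilic ligands, and the family is greatly expanded in nematodes. Such factors are best known from promoters and enhancers, which in the compact nematode genome mostly lie close upstream of genes. Coding sequence is under selection for the protein it encodes and is richer in G and C than the introns and intergenic sequence around it. A ChIP-seq summit in an exon can come from a regulatory site within the exon or near it, since immunoprecipitated fragments are longer than the site they hold.

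The authors' stricter list rests on the irreproducible discovery rate (IDR), which compares how peaks rank in replicates. It held 590 peaks, and these were exactly the 590 highest of the pooled list by signal value. Only 8 coding summits were among them. The coding sequence under 7 of these 8 is printed here because they have the highest signal values among autosomal coding summits outside promoter windows. Each line reads 5′ to 3′ on the strand of the host gene and runs at most 50 bases to either side of the summit, stopping where the coding exon stops. The capitals mark the summit base with up to 5 bases on either side. The assembly is ce11.
F53F1.6, chrV:13416228-13416325, minus strand: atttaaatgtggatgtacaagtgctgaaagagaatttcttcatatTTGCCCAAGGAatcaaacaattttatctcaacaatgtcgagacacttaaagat
lin-12, chrIII:9060405-9060456, minus strand: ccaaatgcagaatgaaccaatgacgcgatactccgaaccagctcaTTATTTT
ncx-6, chrIII:9710315-9710388, minus strand: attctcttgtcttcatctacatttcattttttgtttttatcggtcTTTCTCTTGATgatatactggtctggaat
F41H10.3, chrIV:5374347-5374406, plus strand: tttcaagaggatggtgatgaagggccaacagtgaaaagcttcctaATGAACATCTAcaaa
cpr-9, chrV:12003877-12003977, plus strand: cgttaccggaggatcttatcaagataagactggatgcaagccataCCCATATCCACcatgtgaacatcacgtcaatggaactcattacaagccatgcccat
dos-3, chrIII:835913-836013, minus strand: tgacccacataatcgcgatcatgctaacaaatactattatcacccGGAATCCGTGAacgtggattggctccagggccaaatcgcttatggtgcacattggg
gcna-1, chrIII:6006557-6006610, minus strand: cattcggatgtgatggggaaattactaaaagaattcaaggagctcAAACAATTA

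In 4 of these lines (lin-12, gcna-1, F41H10.3 and ncx-6) the sequence breaks off within 23 bases of the summit, because the coding sequence ends there. The printed stretches range from 31.1% GC in ncx-6 to 48.5% in dos-3. The half-sites of the nuclear receptor family are commonly written AGGTCA. This motif, searched on both strands within 50 bp on either side of the summit, was found at 67 of the 3083 coding summits (2.17%, interval 1.69 to 2.75%). The same window around eligible coding bases held it in 2.09% of cases, and around all autosomal pooled summits in 2.51%. At ranks 1 to 3000 it was found at 5 of 133 coding summits (3.76%, 1.23 to 8.56%), an interval that includes these shares. The repeat GAGAGA, likewise searched on both strands, was found at 5.55% of coding summits (4.76 to 6.41%), at 5.45% of eligible coding bases and at 7.85% of all autosomal summits. At ranks 1 to 3000 it was found at 7 of 133 coding summits (5.26%, 2.14 to 10.5%). Eligible here means autosomal coding sequence outside the promoter windows, sampled at every 20th base for positions and, for motifs, at every 10th base of that sample. A match of letters is a description and not a binding site.

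The coding summits were fewer than coding sequence would hold if summits were spread evenly. Eligible coding sequence made up 15.7% of autosomal bases, or 12.9 Mb, and held 12.5% of autosomal summits, a density of 239 per Mb. Densities were 341 per Mb in promoter windows, 486 in 3′ UTRs, 291 in introns, 257 in intergenic sequence and 140 in noncoding exons. On X, 600 coding summits chosen the same way gave 249 per Mb. The separate replicate lists gave autosomal coding densities of 274 per Mb (3539 summits) in replicate 1 and 243 (3144 summits) in replicate 2. Promoter windows and 3′ UTRs held more summits per Mb than coding sequence in all 3 lists. The order against introns and intergenic sequence varied: in replicate 1 they had 275 and 250 per Mb, level with and below coding sequence, and in replicate 2 289 and 257, above it.

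The IDR share was low. It was 0.259% of coding summits (8 of 3083, interval 0.112 to 0.511%), beside 1.92% of all autosomal pooled peaks and 1.97% of the whole pooled list. Promoter-window summits had a share of 3.33% (3.01 to 3.67%), 3′ UTR summits 1.42% (0.710 to 2.52%) and intergenic summits 1.39% (1.03 to 1.84%). Intronic summits, at 0.273% (0.153 to 0.449%), and coding summits of X, at 0.333% (2 of 600), had intervals that overlapped that of the autosomal coding summits. Among the 590 highest peaks of each replicate alone, 13 coding summits were present in replicate 1 and 8 in replicate 2. The promoter window decided which coding peaks were counted: 24 IDR summits lay in autosomal coding sequence, and 16 of them fell inside a window. The closest to the bound on the inside were pals-26 (8 bp within) and the dynein heavy chain gene dhc-4 (312 bp within), and on the outside acdh-1 (79 bp beyond) and dos-3 (93 bp beyond).

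**Figure D1:**
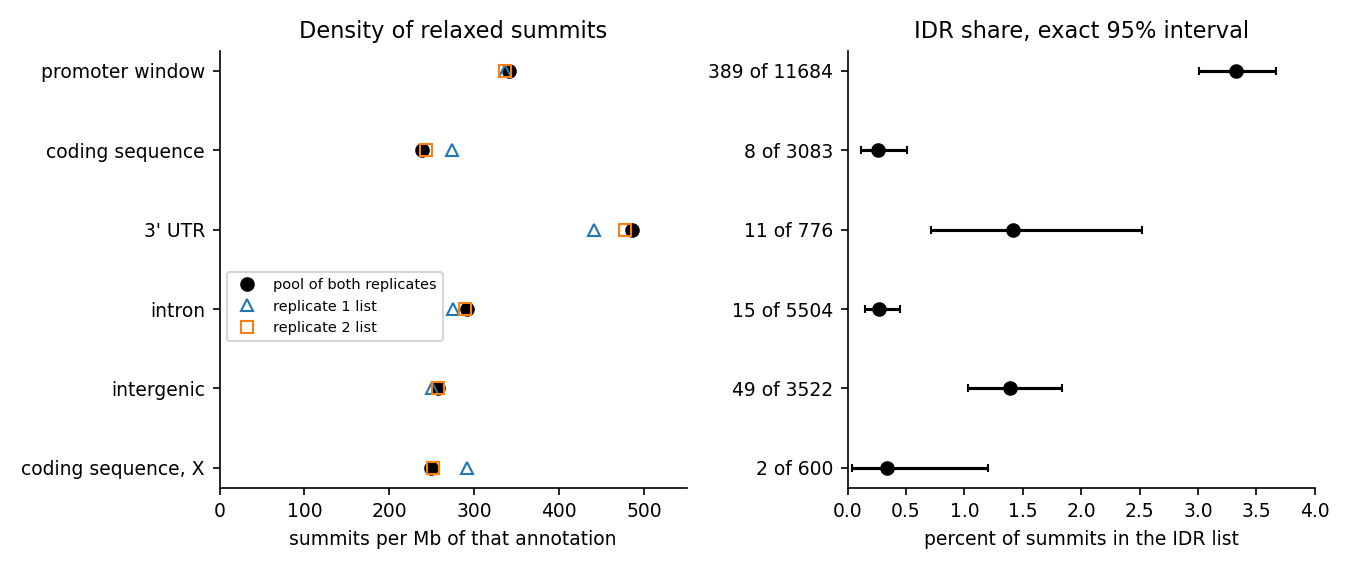
The left panel shows summits per Mb of each annotation in the pool and in each replicate list, and the right panel the percent of pooled summits in the IDR list with exact 95% intervals, for autosomal annotations and for coding sequence of X. Autosomal coding summits had 239 per Mb in the pool and an IDR share of 0.259%, beside 341 per Mb and 3.33% in promoter windows.

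Coding summits lay low in the signal ranking. Their median rank was 16582 of 30000 (quartiles 9582 and 23242), and their median signal value was 7.87, with a maximum of 54.3. The signal value is the authors' enrichment over the control on a scale of its own for each list, so it is compared only within a list. Median ranks were 13684.5 for promoter windows, 13020.5 for 3′ UTRs, 15376 for intergenic sequence and 16652 for introns. The coding share of autosomal peaks rose down the list. It was 1.68% at ranks 1 to 590, 6.28% (125 of 1990) at ranks 591 to 3000, 11.9% (683 of 5761) at ranks 3001 to 10000 and 13.7% (2267 of 16527) below that.

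The 2 replicates recovered few of the same coding summits. A summit of replicate 1 lay within 100 bp of 1336 coding summits (43.3%) and a summit of replicate 2 within 100 bp of 1066 (34.6%). Both replicates had one at 296 places (9.60%, interval 8.58 to 10.7%), beside 13.9% of all autosomal pooled peaks. The share was similar in autosomal introns, 9.52% (8.76 to 10.3%), and in coding sequence of X, 10.3% (8.01 to 13.1%). Neither replicate had one at 977 places (31.7%, 30.05 to 33.4%), beside 28.9% of autosomal peaks. Without the pool, 225 coding summits of the replicate 1 list (6.36%) had a replicate 2 coding summit within 100 bp. In the other direction the share was 7.16% of the replicate 2 list. These 2 shares were not computed for other annotations. Over the 296 matched places, Spearman's rho between the signal values of the replicates was 0.0729, and Pearson's r of log2 values was 0.187. The corresponding rho was 0.486 for promoter-window summits, 0.377 for intergenic, 0.237 for 3′ UTR and 0.227 for intronic summits, and −0.0131 for coding summits of X. Both replicates enter the pool, and each of these correlations is a description across peaks of 2 libraries. Of the 3083 coding summits, 11 matched a peak among the highest 590 of replicate 1, 7 among those of replicate 2, and 1 among both.

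The share matched in both replicates fell with rank, in coding summits as in all autosomal peaks. At ranks 1 to 590, 5 of 8 coding summits (62.5%) were matched in both replicates, beside 89.5% of all autosomal peaks of those ranks. In ncx-6, F41H10.3 and dos-3 the nearest replicate 2 summit lay 186, 120 and 145 bp away, past the 100 bp limit. Another pooled summit lay within 250 bp of 6 of these 8. At ranks 591 to 3000 that held for 23.2% of coding summits, and at ranks 10001 to 30000 for 10.7%. The share with such a neighbour was not computed for all autosomal peaks, so it cannot be called particular to coding summits. The shares matched in both replicates were 44.0% beside 53.3% at ranks 591 to 3000, 18.4% beside 20.6% at ranks 3001 to 10000, and 4.85% beside 4.72% at the lowest ranks. Within the last class the coding summits were thus matched about as often as other autosomal peaks.

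**Figure D2:**
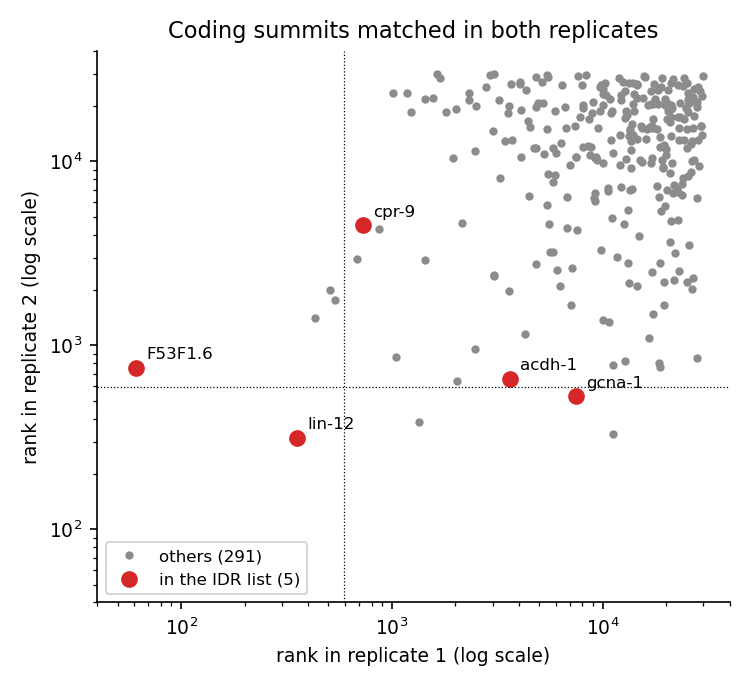
Each point is 1 of the 296 coding summits matched within 100 bp in both replicates, placed by its rank in replicate 1 and in replicate 2 on log axes, with dotted lines at rank 590. The 5 coding summits of the IDR list that were matched in both replicates are red, and only lin-12 lies below 590 on both axes.

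Among the 8 strongest coding summits, the one in F53F1.6 (chromosome V, peak 13416103 to 13416446) ranked highest. Its signal value was 54.3 in the pool at rank 126, 38.1 in replicate 1 at rank 61 and 14.4 in replicate 2 at rank 757. The summit lay 94.6% of the way along the coding sequence, in exon 6 of 6. The peak in lin-12 (chromosome III, 9060234 to 9060577), which encodes a Notch receptor, had signal values of 38.3 in the pool, 19.7 in replicate 1 and 20.3 in replicate 2. Its ranks were 299, 353 and 315, which made it the coding summit placed among the highest 590 of all 3 lists. Its summit was the next to last coding base that the annotation gives before the stop codon.

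The peak in ncx-6 (chromosome III, 9710166 to 9710509), a gene of the sodium/calcium exchanger family, ranked 381 in the pool and 988 in replicate 1, with signal values of 34.7 and 13.5. Replicate 2 had no summit within 100 bp, and its nearest, 186 bp away, ranked 604. That one matched a second coding summit of ncx-6, 212 bp upstream of the first, at pooled rank 1227 and with no match in replicate 1. The peak in F41H10.3 (chromosome IV, 5374225 to 5374568) ranked 514 in the pool and 555 in replicate 1, with signal values of 30.7 and 16.8. The nearest summit of replicate 2 was 120 bp away and ranked 411, beyond the 100 bp limit.

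The peak in dos-3 (chromosome III, 835791 to 836134), which encodes a protein related to Notch ligands, ranked 550 in the pool and 183 in replicate 1, with signal values of 29.8 and 25.2. It had a stronger neighbour: 200 bp downstream lay an IDR peak in the 3′ UTR class with pooled rank 220, which matched rank 130 of replicate 2 and no summit of replicate 1. The peak in gcna-1 (chromosome III, 6006388 to 6006731), the homolog of the germ cell nuclear acidic protein, ranked 577 in the pool and 528 in replicate 2 but 7458 in replicate 1. Its signal values were 29.2, 16.4 and 6.83 in the same order. At each of these 2 places the summit was strong in 1 replicate and weak or unmatched in the other.

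The remaining 2 summits lay well inside their genes. The peak in cpr-9 (chromosome V, 12003755 to 12004098), of the cathepsin B-like cysteine protease family, had its summit 57.2% along the coding sequence, in exon 3 of 3. It ranked 542 in the pool, 730 in replicate 1 and 4512 in replicate 2, with signal values of 30.05, 15.1 and 7.82. The peak in acdh-1 (chromosome I, 6498492 to 6498835), which encodes an acyl-CoA dehydrogenase, had its summit 63.2% along, in exon 4 of 7. It ranked 587 in the pool, 3627 in replicate 1 and 659 in replicate 2, with signal values of 28.9, 8.79 and 15.1. Its nearest 5′ end was its own, 579 bp upstream, which left it 79 bp outside the promoter window.

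The next coding summits by signal belonged to F25B5.5 (rank 634), F57F5.3 (642), agl-1 (802), suro-1 (814), twk-13 (864), skp-1 (874) and best-18 (906). The gene agl-1 encodes a glycogen debranching enzyme, twk-13 a potassium channel, skp-1 a homolog of the splicing and transcription cofactor SKIP, and best-18 a bestrophin. In replicates 1 and 2 the ranks were 432 and 1400 for agl-1, 2488 and 960 for skp-1, and 535 and 1760 for F25B5.5. For suro-1 they were 2033 and 643. For best-18 they were 1007 and 23495, and for twk-13 11238 and 331. The summit in F57F5.3 ranked 114 in replicate 1, and the nearest in replicate 2 was 178 bp away at rank 6494. The summits in best-18, twk-13 and F57F5.3 thus each rested mainly on 1 replicate. The summit of agl-1 lay 7 coding bases from the end of the coding sequence and that of skp-1 24 bases from it, whereas the summit of suro-1 lay 34.2% along.

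The strong coding summits lay towards the 3′ end of the coding sequence. In the last 10% of the coding sequence lay 457 of the 3083 summits (14.8%, interval 13.6 to 16.1%), against 10.7% of eligible coding bases. At ranks 1 to 590, 6 of 8 were there (75%, 34.9 to 96.8%), at ranks 591 to 3000 41 of 125 (32.8%, 24.7 to 41.8%), at ranks 3001 to 10000 113 of 683 (16.5%), and at the lowest ranks 297 of 2267 (13.1%, 11.7 to 14.6%). For ranks 1 to 3000 together the share was 35.3% (47 of 133). It was lower when the summits and ranks came from 1 replicate: 24.2% of 207 in replicate 1 and 25.5% of 165 in replicate 2. Among the highest 590 of each replicate, 10 of 13 coding summits (76.9%) and 5 of 8 (62.5%) lay in the last 10%. The last 10% and the rank of 3000 were chosen for emphasis after the values were seen.

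**Figure D3:**
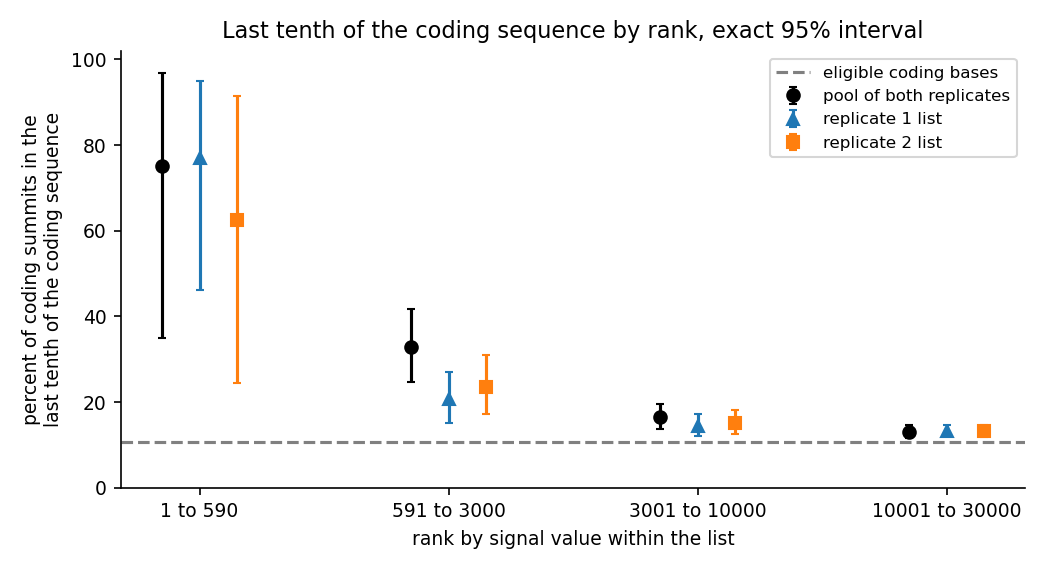
Percent of coding summits in the last 10% of the host coding sequence by rank within the pooled list or each replicate list, with exact 95% intervals, and the share of eligible coding bases as a dashed line. The share was highest at ranks 1 to 590 in all 3 lists and within 3 percentage points of the 10.7% line at the lowest ranks.

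Over the whole coding sequence the distribution was flatter. The median position was 61% (quartiles 39.2 and 81.8%), and that of eligible bases was 57.8%. Over 10 stretches of equal length the density ranged from 208 per Mb in the fifth to 330 in the last. The first 10% held 1.98% of summits and 2.02% of eligible bases, since the windows around 5′ ends remove most of it. None of the 61 summits there ranked in the highest 3000, with an exact upper limit of 5.87% that includes the 4.31% of all coding summits. In the last 10% the share was 10.3% (7.65 to 13.4%). Within 100 coding bases of the end lay 10.8% of summits and 7.52% of eligible bases. The last coding exon held 7 of 8 summits at ranks 1 to 590, 44.8% at ranks 591 to 3000, 22.3% at ranks 3001 to 10000 and 17.6% below that, beside 15.2% of eligible bases.

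**Figure D4:**
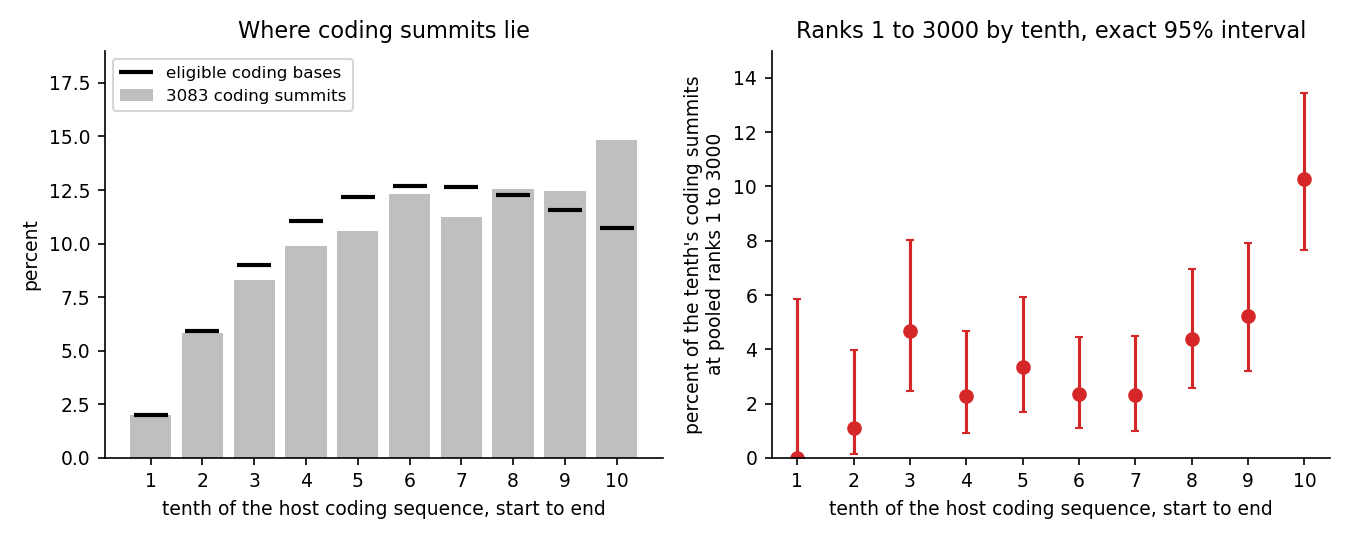
The left panel shows the percent of the 3083 coding summits in each 10% of the coding sequence as bars and of eligible coding bases as black dashes, and the right panel the percent of the summits in each 10% that ranked 1 to 3000, with exact 95% intervals. The last 10% held 14.8% of summits and 10.7% of eligible bases, and 10.3% of its summits ranked in the highest 3000.

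The strong summits near the end of a coding sequence often faced a gene on the opposite strand, so that both genes ended towards each other. In all 6 IDR summits of the last 10%, the next protein coding gene beyond the host's 3′ end was on the opposite strand. The gap was 31 bp between F53F1.6 and the cuticlin gene cut-2 and 39 bp between lin-12 and the glutathione S-transferase gene gst-1. The other 4 hosts overlapped or abutted the next gene, as ncx-6 did with the kinase gene tlk-1, F41H10.3 with the fatty acid elongase gene elo-5, dos-3 with the bZIP factor gene zip-2 and gcna-1 with T04C9.1. The protease gene cpr-9 and F57F5.3 ended 26 bp apart, and both held a coding summit, 766 bp from each other, at pooled ranks 542 and 642. The one in F57F5.3 was unmatched in replicate 2.

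For the 47 summits of the last 10% at ranks 1 to 3000, the next gene was on the opposite strand in 41 (87.2%, interval 74.3 to 95.2%). The share was 71.7% both at ranks 3001 to 10000 (81 of 113) and at ranks 10001 to 30000 (213 of 297). It was 60.3% over the eligible coding bases of the last 10%, which already leave out the promoter windows of genes that follow on the same strand. In the replicate lists the share at ranks 1 to 3000 was 84.0% (42 of 50) in replicate 1 and 69.0% (29 of 42, 52.9 to 82.4%) in replicate 2, where the interval included both the share of the lower pooled ranks and that of eligible bases. This comparison too was added after the values were seen. The 47 summits had a median GC content of 37.3%, beside 38.3% for eligible coding bases of the last 10%. Of the 47, 24 (51.1%) were matched in both replicates. All autosomal peaks were so matched in 89.5% of cases at ranks 1 to 590 and in 53.3% at ranks 591 to 3000.

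Coding summits had the median GC content of eligible coding sequence over all genes. The median GC content within 100 bp on either side of the summit was 39.8% (quartiles 36.3 and 44.3%), and that of eligible coding bases was also 39.8%. Promoter-window summits had 35.8%, intergenic 33.8%, intronic 32.8% and 3′ UTR summits 32.3%. When the coding summits were divided into 4 groups of similar size by GC content, the median rank lay between 15910 and 17105.5, with no steady order. The share matched in both replicates lay between 8.64% and 11.2% in these groups. The 8 IDR summits had a lower median, 35.3%, and 5 of them fell in the group of lowest GC content. Of the 8, 6 lay in the last 10% of the coding sequence. These 6 had a median of 34.1%, and eligible bases there had a median of 38.3%. Within 100 coding bases of the end lay 5 of the 8, and their GC windows ran past the coding sequence. Whether position accounts for the lower GC content was not tested. Soft-masked repeats covered 7.82% of coding summits and 7.90% of eligible bases. By rank the share was 25% of the 8 summits at ranks 1 to 590 and 14.4% of the 125 at ranks 591 to 3000. It was 8.05% at ranks 3001 to 10000 and 7.32% at ranks 10001 to 30000. No interval was computed for these shares.

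The host genes were spread widely. Of 13880 autosomal genes with eligible coding sequence, 2473 (17.8%) held a summit. A single summit was found in 2014 of them, 459 held more than 1, and 10 held at least 5. Summits in 1 gene share a target and are not independent. The share of genes that were hosts rose with eligible length, from 6.58% of genes with at most 500 bp to 66.8% of genes with more than 4000 bp, while density stayed between 20.9 and 26.7 summits per 100 kb in all 5 length classes. The 5 genes with most summits were all long, and their densities are set beside 2.39 summits per 10 kb over all genes. The basement membrane perlecan gene unc-52 held 10 summits (9.16 per 10 kb, best rank 2325). The spectraplakin gene vab-10 held 8 (3.81 per 10 kb, best rank 8186), and the muscle obscurin gene unc-89 held 7 (2.97 per 10 kb, best rank 2910). The attachment protein gene let-805 and the lipoprotein receptor gene lrp-1 held 6 each (4.56 and 4.23 per 10 kb, best ranks 6972 and 8672). These genes were chosen by their counts, so their densities are a description. Length alone did not order the counts: dig-1, with 39077 eligible bp, held 5 summits, and so did mbk-2, with 1791 bp, both picked out after their values were seen.

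The rule keeps summits away from 5′ ends, so distances are read against eligible coding bases. The median distance to the nearest 5′ end was 1484 bp, beside 1469 bp for eligible bases. For 2059 summits (66.8%) that end belonged to the host gene itself, beside 67.9% of eligible bases. A stronger pooled summit of any annotation lay within 1000 bp of 850 coding summits (27.6%). That share was 12.5% of the 8 coding summits at ranks 1 to 590 and 32.3% at ranks 10001 to 30000. A summit high in the list has fewer stronger summits that could lie near it. The definition itself thus favours a rise down the list, and no conclusion is drawn from it. Within a gene of the other strand lay 69 coding summits (2.24%). Neither of these 2 shares was computed for eligible bases or for other autosomal peaks. By chromosome the density was 281 per Mb on chromosome III, 253 on II, 238 on I, 226 on IV and 207 on V. Chromosome III, with 2.33 of the 12.9 Mb of eligible coding sequence, held 4 of the 8 IDR summits. Chromosome V held 2, I and IV held 1 each and II held 0, counts too small to rank the chromosomes. In the replicate lists chromosome V again had the lowest density, at 238 and 230 per Mb. Chromosome III had 296 and 250 per Mb, close to chromosomes I (294 and 242) and II (292 and 251).

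Neither the target gene nor the mutated marker gene held a coding summit. The gene nhr-77 (chromosome I, 12384277 to 12385731), with 695 bp of eligible coding sequence, had no pooled summit anywhere in its span. The gene unc-119 (chromosome III, 10902641 to 10908935) has only 166 bp of eligible coding sequence. It held 3 pooled summits, 2 in introns and 1 in the 3′ UTR, the best at rank 14325.

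Gene lists were compared by the number of coding summits per 100 kb of eligible coding sequence, which was 23.9 over all genes in the pool, 27.4 in replicate 1 and 24.3 in replicate 2. There were 22 lists, matched by gene symbol, and 19 of them held at least 3 summits. No list held a summit of the IDR list. Translation factors had the highest density in the pool, 67.7 per 100 kb (16 summits in 12 of 28 genes, interval 38.7 to 110.0), with 55.03 in replicate 1 and 50.8 in replicate 2. In both replicate lists cytosolic ribosomal protein genes stood higher, at 72.3 over 4.15 kb, and in the pool they had 48.2 from 2 summits. None of these 16 ranked in the highest 3000, where 4.31% of all coding summits did (133 of 3083). The best belonged to the elongation factor gene eef-2 (rank 8208), to eif-3.D, a subunit gene of an initiation factor (10961), and to ifg-1, which encodes the scaffold eIF4G (11925). The strongest of the 16 was matched in replicate 2 alone, the next in replicate 1 alone and that in ifg-1 in neither.

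Genes of glycolysis and central carbon metabolism had 47.2 summits per 100 kb (13 summits, interval 25.1 to 80.6), with 43.5 and 36.3 in replicates 1 and 2. Their best summits lay in pdha-1, for a subunit of pyruvate dehydrogenase (rank 3448), the citrate synthase gene cts-1 (4295) and the phosphoenolpyruvate carboxykinase gene pck-2 (4785). Actin and tubulin genes had 54.2 from only 5 summits, and 43.4 and 54.2 in the replicates. Proteasome and ubiquitin genes had 40.8 (19 summits, 24.6 to 63.7), with 49.4 in replicate 1 and 27.9 in replicate 2. Homeobox, bHLH and GATA factor genes had 38.5 (18 summits), but 27.8 and 21.4 in the replicate lists. Lipid synthesis and transport genes had 31.8 (33 summits), with 43.4 and 35.7, and their best summits were in the acyl-CoA synthetase gene acs-20 (rank 1956) and the fatty acid synthase gene fasn-1 (2515).

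Cuticle collagen genes, which encode the secreted coat of the larva, had 31.9 summits per 100 kb (21 summits in 19 of 123 genes, interval 19.8 to 48.8), with 36.5 and 24.3 in the replicates. Of these 21 summits, 6 ranked in the highest 3000, beside 4.31% of all coding summits. The stronger of the summits in dpy-4 ranked 1073 in the pool, 4278 in replicate 1 and 1160 in replicate 2, with 60.7% GC. The other in dpy-4 ranked 1658, 508 and 1988, with 36.8% GC, 99.5% along the coding sequence. The summit of dpy-5 ranked 1081, 1046 and 864, with 58.7% GC. Sarcomere and muscle attachment genes had 29.9 per 100 kb (61 summits in 25 of 35 genes), with 27.5 in each replicate, led by the tropomyosin gene lev-11 at rank 1569 and the kindlin gene unc-112 at rank 2135. The basement membrane and matrix list had 20.6 (23 summits), led by unc-52.

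The family of the tagged receptor stood near the level of all genes. Nuclear hormone receptor genes held 49 coding summits in 41 of 235 genes, or 28.02 per 100 kb (interval 20.7 to 37.0), with 27.4 and 25.7 in the replicate lists. The best were in nhr-243 (rank 1487), nhr-34 (rank 1727) and nhr-143 (rank 2572), and each of these 3 was matched in replicate 2 and not in replicate 1. Chromatin remodelling and histone modification genes had 28.9 per 100 kb, with the best summit in the acetyltransferase gene cbp-1 at rank 2102. Chaperone genes had 28.4, with the best in the mitochondrial hsp-6 at rank 1761. Aminoacyl tRNA synthetase genes had 27.3, oxidative phosphorylation genes 26.9 from 4 summits, and genes of RNA polymerase II, splicing and mRNA processing 20.2. The last list had 32.3 in replicate 1, above the 27.4 of all genes there, and 24.2 in replicate 2.

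The lowest densities among lists with summits were found in 3 large nematode gene families and in 1 list of cytoskeletal genes. Chemoreceptor genes had 12.7 summits per 100 kb in the pool (77 summits over 606 kb, interval 10.03 to 15.9), 19.1 in replicate 1 and 18.3 in replicate 2. F-box and MATH-BTB genes had 11.5 in the pool (23 summits, 7.27 to 17.2), but 23.4 and 18.0 in the replicates, beside 27.4 and 24.3 for all genes. C-type lectin genes had 11.8 in the pool and 17.4 and 14.6 in the replicates. Spectrin, dynein, kinesin and non-muscle myosin genes had 12.1 in the pool but 19.5 and 22.3 in the replicates. In all 4 lists the replicate values lay closer to the value of all genes in the same list of peaks than the pooled value did. The strongest chemoreceptor summits lay in srz-83 (rank 1078, with 7173 and 2619 in the replicates) and sra-10 (rank 1613, with 11218 and 779). Translation factors and chemoreceptors were singled out among the 22 lists after their values were seen.

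**Figure D5:**
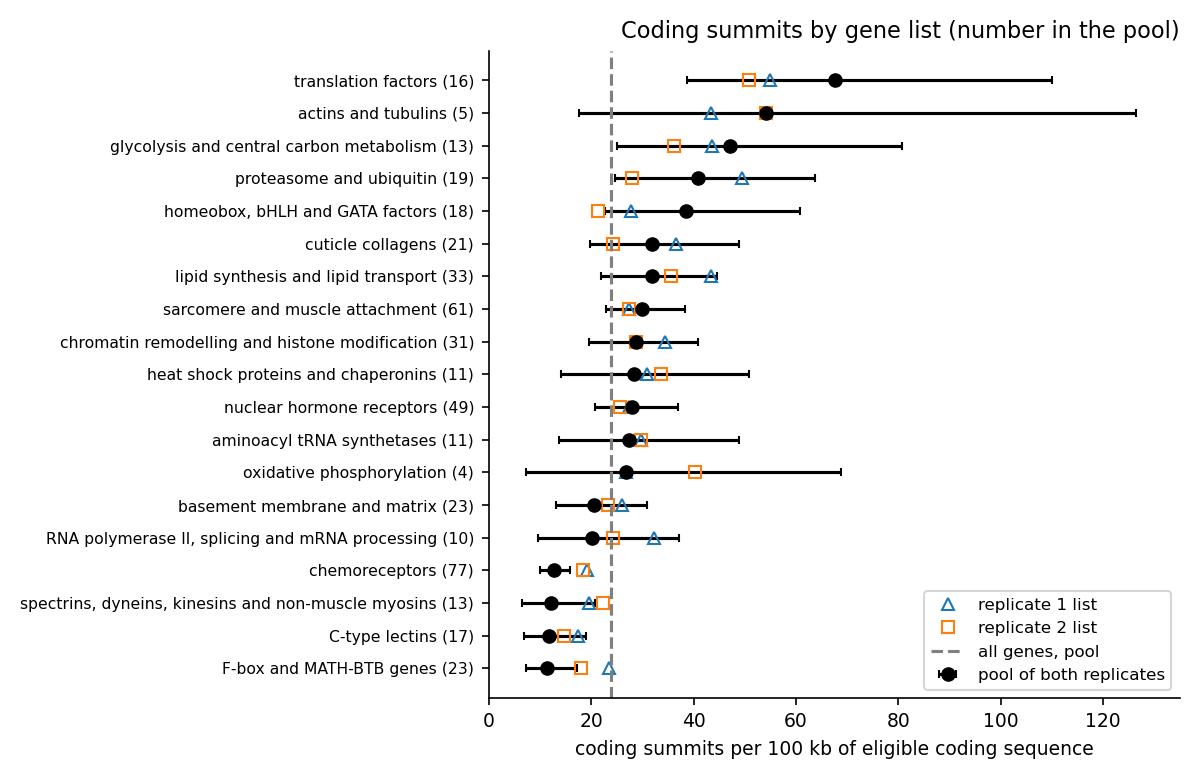
Coding summits per 100 kb of eligible coding sequence for the 19 gene lists with at least 3 summits, in the pool (black, with exact Poisson 95% intervals) and in each replicate list (open symbols), with the pooled value of all genes as a dashed line. Translation factors lay highest at 67.7 in the pool, and chemoreceptors, C-type lectins and F-box and MATH-BTB genes lay at 11.5 to 12.7 in the pool and higher in both replicate lists.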

How the data were processed

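Per the labels and the deposited inventory texts, the authors called relaxed peaks on ce11 alignments of each replicate and of their pool against a control, and derived the IDR list from these. The sources used here name no aligner, peak caller or IDR threshold. The deposited signal value is a score of enrichment. The deposited second score is the −log10 of a q-value, with many ties. The deposited summit offset gave the summit base. Lists on ce10 were not used.

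Coordinates are 1-based on ce11, the same sequence as WBcel235. Annotation came from Ensembl release 115, whose coding sequence leaves out the stop codon. Position was taken along the coding sequence of the longest transcript that holds the summit. Summits within 100 bp counted as 1 place. The analysis used python 3.11.15, numpy 2.4.6, pandas 2.3.3, scipy 1.17.1 and matplotlib 3.10.9, and was tested on simulated summits.

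The summits and gene lists were chosen with earlier results of these data known. Named genes are hosts of IDR summits, the 15 strongest coding summits, the 5 genes with most summits, up to 3 per gene list with at least 3 summits, nhr-77, unc-119, and the coding IDR summits nearest the window bound. Genes that follow a host were named after the values were seen. Alternatives changed the window, annotation, matching distance, GC window, coordinate, threshold or list.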

Additional observations from a re-analysis of the deposited data

How the results depend on the processing

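A promoter window of 2000 bp upstream to 1000 bp downstream left 1772 coding summits (7.16% of autosomal peaks) in 1389 genes, with a median position of 64.4% and 40.8% of ranks 1 to 3000 in the last 10% of the coding sequence. A window of 500 bp on either side gave 13.9% of peaks and a median position of 62.5%. The replicate lists in place of the pool gave 12.8 to 14.4% of peaks, 0.254 to 0.367% in the highest 590, a median position of 60.2 to 60.7% and 24.2 to 25.5% of ranks 1 to 3000 in the last 10%. With 0.5 times as many top peaks as the IDR list, 0.0324% of coding summits were among them, and with 2 times as many 0.778%. Median position was 63.2% along the genomic span of the gene and 59.5% in the shortest transcript, and the shares of ranks 1 to 3000 in the last 10% were then 28.6% and 33.1%. That share was 33.1% without summits in a gene of the other strand or a noncoding exon. Median GC content was 43.1% within 25 bp of the summit and 38.9% within 200 bp. The share matched in both replicates was 4.09% within 50 bp and 17.5% within 200 bp, so it moves with the distance allowed.

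The share of IDR summits in the highest 590 of both replicates was 12.5 to 25% over both distances. Median rank stayed between 16527 and 16601 in all 5 alternatives. The deposited p-value score was −1 in every peak, so the planned ranking by it was not run. Ranking by the −log10 q-value was added after the data were seen, as were all alternatives for the share in the last 10%. The densities of the 22 gene lists were recomputed as well, and small lists moved most, such as cytosolic ribosomal protein genes, with 2 summits, from 24.1 to 175.7 per 100 kb. No paired analysis was possible because there is 1 group and no comparison between groups.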
